A study of Mus musculus with 5 samples.

Results

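The 10 genes described here, Mettl2, Tlk2, Tanc2, Cyb561, Ace, Dcaf7, Taco1, Map3k3, Limd2 and Strada, lie close to Mrc2 on mouse chromosome 11. They were chosen for that position, with earlier results of these data known. They are 10 of the 57186 genes in the tables. All 10 passed the filter on low counts and are among the 16412 genes tested. The RNA came from whole cardiac atria, and 5 libraries of the same batch were analysed: 3 from mice labelled MRC2 E990G-het (het 5, het 6 and het 7) and 2 from Wild-type mice (WT 7 and WT 8). The series describes 8 WT and 7 het animals aged 4 to 10 months. Het animals carry 1 allele that encodes a changed MRC2 protein, and WT animals carry none. Strain, sex, the age of each animal and the way the allele was made are not given in the sources used here. The atria were whole, so fewer cells of a type and less RNA per cell cannot be told apart.

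Mrc2 encodes a collagen receptor of fibroblasts that takes collagen into the cell for breakdown. Its neighbours have no shared function. Ace makes angiotensin II and degrades bradykinin, Map3k3 and Strada work in kinase cascades, Tlk2 acts on histone chaperones, and Mettl2 and Taco1 serve tRNA modification and mitochondrial translation. Genes beside an altered locus stay linked to it through breeding, and they are therefore often examined when a carrier is compared with its wild type. The question here is whether RNA of the genes beside Mrc2 differed between het and WT atria.

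Map3k3 and Dcaf7 stood higher in every het library than in either WT library, and Strada stood lower, but none of the 10 genes passed the test across all genes. By edgeR's quasi-likelihood test with Benjamini-Hochberg adjustment, 0 of 10 were called higher and 0 lower at an adjusted p under 0.05. The background was 5.64% of the 16412 genes called, 2.99% higher and 2.66% lower. At an unadjusted p under 0.05 the count was 2 of 10, Map3k3 and Dcaf7, beside 24.7% of all genes. Mrc2 (ENSMUSG00000020695) itself had 37.9, 31 and 46.7 CPM (counts relative to the library total, scaled with TMM factors) in het 5, 6 and 7 and 43.6 and 34.2 in WT 7 and WT 8. Its log2 fold change, het against WT, was -0.013 (SE 0.18, adjusted p = 0.973 by edgeR), with overlapping groups. The label names a change of the protein, which a gene count does not read, so the level of Mrc2 is no check of the labels.

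The upstream sequences of Ace, Map3k3 and Dcaf7 are printed because these genes carried the largest spread (Ace) and the smallest p-values. Each is the 250 bases before a transcription start in RefSeq, build GRCm38.p6, plus strand, written 5′ to 3′ with motif matches in capitals. The library values use build GRCm39, so the windows serve for their letters only. Of the 10 genes, 8 matched the promoter table, with 12 starts; Mettl2 and Cyb561 had no entry. The motifs searched on both strands were the TATA box as TATAAA, the CCAAT box under its own name, the GC box as GGGCGG, the cyclic AMP response element (CRE) as TGACGTCA and a CRE-like element as TGAGGTCA. None of these motifs contains another. The outer start of Ace, at chr11:105967698-105967947, is the one used for the long somatic enzyme. The inner start, at chr11:105974939-105975188, lies inside the gene and is known for the short enzyme of male germ cells. Map3k3 is at chr11:106084337-106084586 and Dcaf7 at chr11:106036622-106036871.
Ace outer start: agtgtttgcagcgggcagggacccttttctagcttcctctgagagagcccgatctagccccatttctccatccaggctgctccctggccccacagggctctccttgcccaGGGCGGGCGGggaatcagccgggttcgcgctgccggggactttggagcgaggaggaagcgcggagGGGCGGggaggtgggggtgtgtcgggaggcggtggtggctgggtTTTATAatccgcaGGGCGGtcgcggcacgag
Ace inner start: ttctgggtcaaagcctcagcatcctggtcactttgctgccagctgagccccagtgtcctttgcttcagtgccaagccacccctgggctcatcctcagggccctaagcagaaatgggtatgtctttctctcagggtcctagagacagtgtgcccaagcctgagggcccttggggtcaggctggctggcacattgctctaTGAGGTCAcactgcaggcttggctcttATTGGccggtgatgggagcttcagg
Map3k3: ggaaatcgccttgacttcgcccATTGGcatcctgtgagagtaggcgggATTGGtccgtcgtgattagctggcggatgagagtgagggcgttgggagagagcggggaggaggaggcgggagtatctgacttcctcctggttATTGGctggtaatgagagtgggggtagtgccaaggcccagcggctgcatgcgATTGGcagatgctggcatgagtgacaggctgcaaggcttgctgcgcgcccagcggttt
Dcaf7: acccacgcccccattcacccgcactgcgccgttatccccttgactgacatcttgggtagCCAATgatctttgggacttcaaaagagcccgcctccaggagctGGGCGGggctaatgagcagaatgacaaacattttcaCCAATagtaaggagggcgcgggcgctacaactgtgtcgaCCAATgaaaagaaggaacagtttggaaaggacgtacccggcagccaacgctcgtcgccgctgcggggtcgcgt

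Both Ace windows hold different letters. The outer one has a TATA box, read as TTTATA 31 bases before the start, and GC boxes at 140, 136, 75 and 18 bases. The inner one has neither, and holds the CRE-like letters 52 bases and a CCAAT box, read as ATTGG, 25 bases before its start. The CRE-like letters occurred in 1.94% of 32851 RefSeq windows of the same length and TATAAA in 12.4%, and each occurred in 1 of the 12 windows of the flanking genes. Map3k3 has 4 CCAAT boxes, all on the minus strand as ATTGG, at 228, 202, 110 and 58 bases, and no GC box. Dcaf7 has 3 CCAAT boxes, at 191, 112 and 73 bases, and 1 GC box at 148 bases. CCAAT was present in 33.8% of all windows and in 6 of the 12, GGGCGG in 32.7% and in 8 of the 12. TGACGTCA was present in 1.55% of all windows and in 0 of the 12. These are matches of letters and were not tested for binding.

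Map3k3 (ENSMUSG00000020700) encodes Mekk3, the kinase that starts the Mek5 and Erk5 cascade and is needed in the endothelium of the developing heart. It measured 54.7, 54.2 and 51.3 CPM in het 5, 6 and 7 and 42.8 and 35.9 CPM in WT 7 and WT 8. All 3 het libraries were above both WT libraries, and the het values lay closer together. The means were 53.4 ± 1.89 CPM (SD, n = 3) and 39.4 ± 4.92 CPM (SD, n = 2). The log2 fold change was 0.44 (SE 0.13), with an adjusted p of 0.0638 by edgeR. With the trends of each library with gene length and GC content removed it was 0.41, adjusted p = 0.156. The call turned with the method. DESeq2 called Map3k3 higher (0.43, adjusted p = 0.0372; background 10.0%), as did edgeR on library size alone (0.48, adjusted p = 0.0466; background 7.23%) and edgeR on every gene with a count (0.49, adjusted p = 0.0232; background 7.0%). Over 20 settings its log2 fold change kept its sign and ranged from 0.33 to 0.58, with adjusted p from 0.0232 to 0.195. Of the 8 endothelial markers, all detected in every library, Pecam1, Kdr, Tek and Emcn were higher in all 3 het libraries than in both WT libraries in TPM (length-scaled transcript abundance), and Egfl7 was lower. Over all tested genes this held in TPM for 27.7% higher and 11.2% lower. Pecam1 measured 107, 119 and 108 TPM in het 5, 6 and 7 and 84.0 and 84.1 TPM in WT 7 and WT 8. The sum of the 8, to which Vwf and Egfl7 gave the largest parts, was 559 to 621 TPM in het and 611 to 724 TPM in WT. By the test 0 of the 8 were called higher and 1, Egfl7, lower. Their part in the Map3k3 values was not tested.

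Dcaf7 (ENSMUSG00000049354) encodes a WD40-repeat adaptor that binds the kinases Dyrk1a and Hipk2 and has been found with Cul4 ubiquitin ligases. It measured 83.3, 91.3 and 90.8 CPM in het 5, 6 and 7 and 70.6 and 71.4 CPM in WT 7 and WT 8. The groups did not overlap, and the means were 88.4 ± 4.49 CPM (SD, n = 3) and 71.0 ± 0.549 CPM (SD, n = 2). The difference on the log2 scale was 0.32 (SE 0.12, adjusted p = 0.126 by edgeR). Removing the length and GC trends lowered it to 0.13. Its transcripts average 5722 bases in these tables. Over the 20 settings the value stayed above 0, between 0.085 and 0.47, and in none was it called (adjusted p 0.0852 to 0.763).

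Strada (ENSMUSG00000069631) encodes the pseudokinase that binds and activates Lkb1, and it was the gene whose het libraries all lay below the WT libraries. It measured 14.6, 13.2 and 13.4 CPM in het 5, 6 and 7 and 15.4 and 16.8 CPM in WT 7 and WT 8. The gap between the groups was small, from 14.6 to 15.4 CPM. Its log2 fold change was -0.24 (SE 0.16, adjusted p = 0.379 by edgeR), and it was below 0 in all 20 settings, nearest to 0 on log2(TPM + 1) at -0.053. Strada overlaps Ccdc47 on the same strand, a gene with 2442 to 4379 counts per library, and reads in the shared stretch could be assigned to either, so its level is uncertain.

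Groups did not overlap in CPM for these 3 of the 10 genes, 2 higher and 1 lower in het. Over all tested genes this held for 42.3%, 21.1% higher and 21.2% lower, so the share among the flanking genes was not above the background. Measured in TPM, 4 of the 10 did not overlap, Tlk2, Dcaf7, Map3k3 and Limd2, all higher in het. In that unit the groups did not overlap for 38.9% of all tested genes, 27.7% higher and 11.2% lower, so TPM as a whole leaned towards het.

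**Figure D1:**
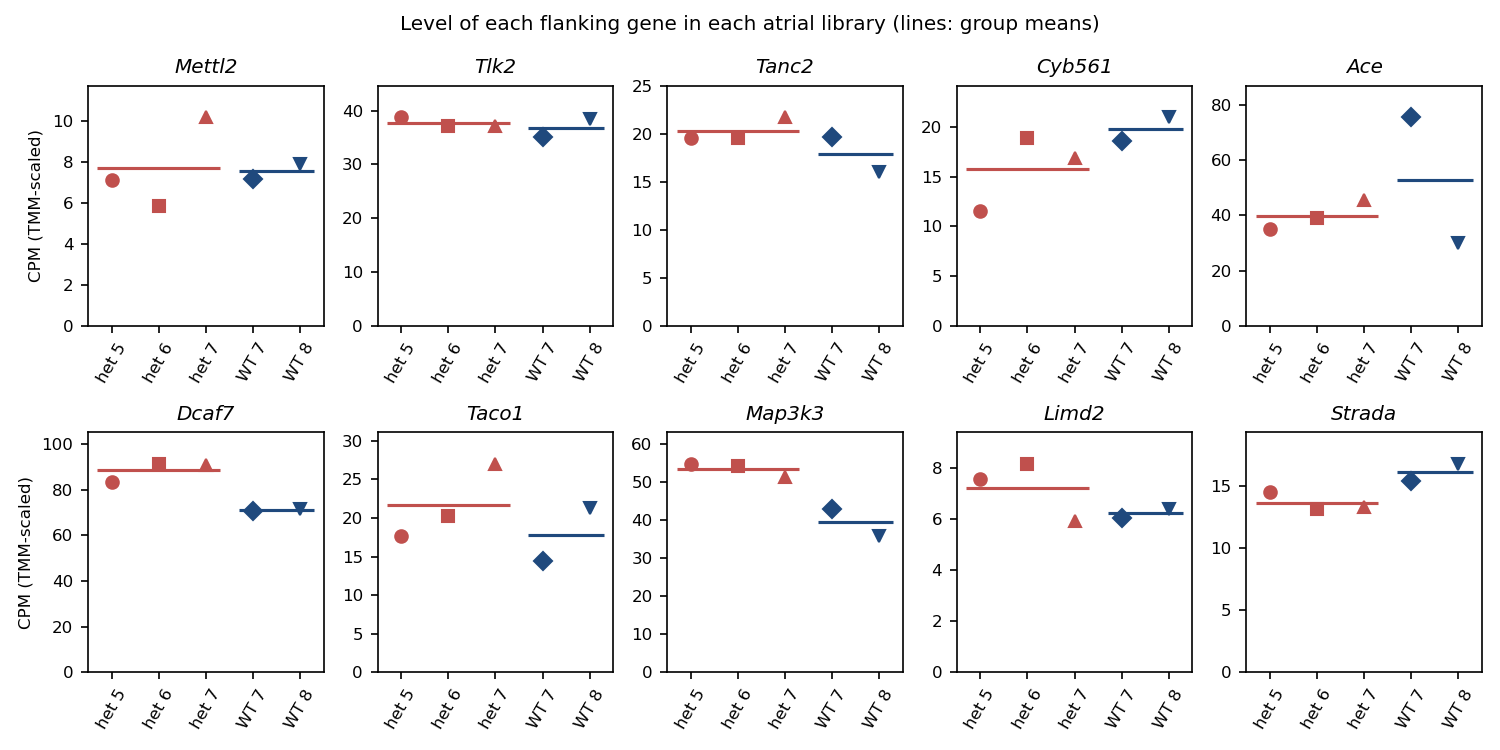
Level of each of the 10 flanking genes in each library, in TMM-scaled CPM on axes from 0; red marks are het 5, 6 and 7, blue marks are WT 7 and WT 8, and lines are group means. Map3k3 and Dcaf7 are higher and Strada lower in all 3 het libraries, and Ace is highest in WT 7 at 75.5 CPM.

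Ace (ENSMUSG00000020681), which encodes angiotensin-converting enzyme, had the widest spread of the 10, and that spread lay within WT. It measured 35.1, 39.0 and 45.5 CPM in het 5, 6 and 7, 75.5 CPM in WT 7 and 30.1 CPM in WT 8. WT 7 was above and WT 8 below every het library, so the WT mean of 52.8 ± 32.1 CPM (SD, n = 2) describes neither animal, beside 39.9 ± 5.22 CPM (SD, n = 3) in het. The log2 fold change was -0.41 (SE 0.44, adjusted p = 0.639 by edgeR). Without WT 8, with WT 7 as the only wild type and assumed to vary like the het libraries, it was -0.91 (adjusted p = 0.0177) and Ace was called lower. The background of that fit was 5.01% called, 1.66% lower. Without WT 7 it was 0.41 (adjusted p = 0.198), the opposite sign. WT 7 also differed from the other 4 libraries in genes of the sex chromosomes: the Y-linked Ddx3y had 938 counts in WT 7 and 0 to 3 elsewhere, and Xist had 22 counts in WT 7 and 6117 to 15280 elsewhere. With Y-linked expression as a covariate the log2 fold change of Ace was 0.37. That covariate was 138 CPM in WT 7 and at most 0.33 CPM elsewhere, so this fit nearly repeats the one without WT 7. A sex difference and a difference of this 1 animal cannot be told apart.

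**Figure D2:**
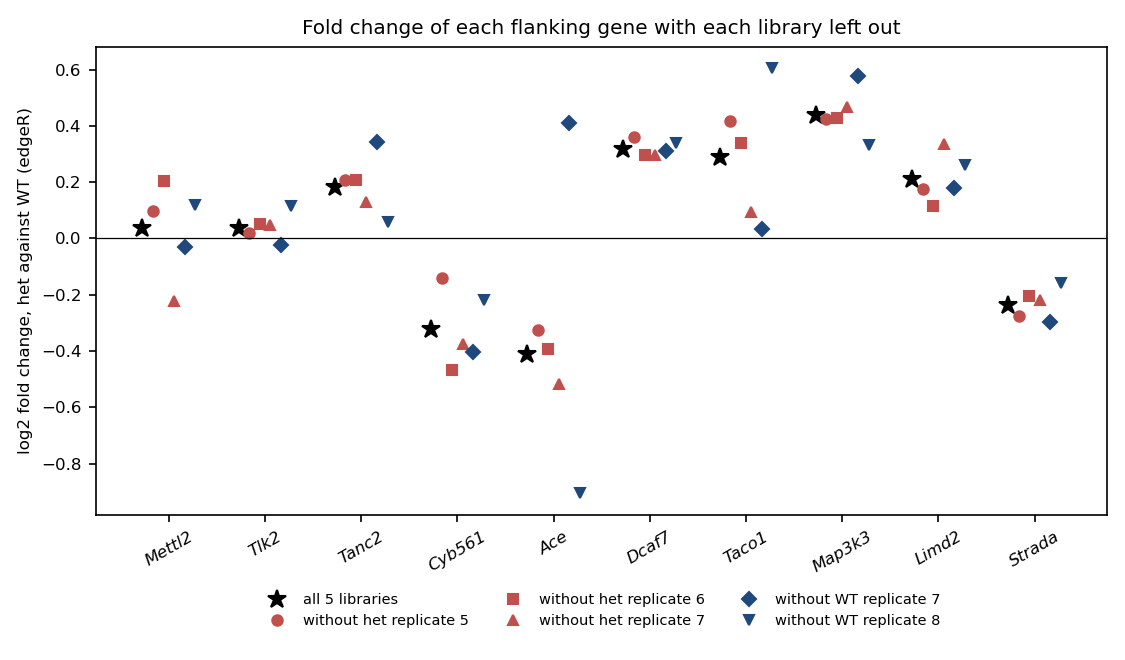
Log2 fold change of each flanking gene, het against WT, by edgeR with all 5 libraries (star) and with each library left out (red marks, a het library left out; blue marks, a WT library left out). Ace goes from -0.91 without WT 8 to 0.41 without WT 7, while Map3k3, Dcaf7, Taco1 and Limd2 stay above 0 and Cyb561 and Strada below 0 in all 6 fits.

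The other enzymes and membrane proteins of the stretch overlapped between the groups. Cyb561 (ENSMUSG00000019590), a membrane protein that carries electrons from ascorbate into secretory vesicles, measured 11.5, 18.9 and 16.9 CPM in het 5, 6 and 7 and 18.6 and 21.0 CPM in WT 7 and WT 8. Het 5 was the lowest library, and het 6 was above WT 7. The log2 fold change was -0.32 (SE 0.20, adjusted p = 0.344 by edgeR) with all libraries and -0.17 once the length and GC trends were removed, and without het 5 it was -0.14. On log2(TPM + 1) it was -0.036. Mettl2 (ENSMUSG00000020691), which places 3-methylcytidine in tRNA, was low, at 7.08, 5.82 and 10.2 CPM in het 5, 6 and 7 and 7.17 and 7.89 CPM in WT 7 and WT 8. Het libraries held both its lowest and its highest value, and the log2 fold change was 0.036 (SE 0.25, adjusted p = 0.947 by edgeR).

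Taco1 (ENSMUSG00000001983) encodes the translational activator of mitochondrial cytochrome c oxidase subunit I. It measured 17.7, 20.3 and 27.0 CPM in het 5, 6 and 7 and 14.4 and 21.3 CPM in WT 7 and WT 8. Het 7 was the highest and WT 7 the lowest, and the ranges overlapped. Its log2 fold change was 0.29 (SE 0.22, adjusted p = 0.450 by edgeR). Single libraries moved it widely, to 0.034 without WT 7, 0.096 without het 7 and 0.61 without WT 8. With Y-linked expression as a covariate, which nearly repeats the fit without WT 7, it was 0.046. Removing the length and GC trends raised it to 0.47. Its transcript, of 1383 bases on average, is the shortest of the 10, and it moved with that step in the direction opposite to the longer Dcaf7.

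Tlk2 (ENSMUSG00000020694), the Tousled-like kinase that phosphorylates the histone chaperone Asf1, was the most even of the 10. It measured 38.7, 37.1 and 37.2 CPM in het 5, 6 and 7 and 35.1 and 38.3 CPM in WT 7 and WT 8. The log2 fold change was 0.038 (SE 0.13, adjusted p = 0.889 by edgeR), and the sign changed with the setting, from -0.13 with length and GC trends removed to 0.23 at the highest. An antisense gene, 1700052K11Rik, overlaps Tlk2 and had 67.8 to 160.5 counts, up to 18.7% of the Tlk2 count. The strand setting used in counting is not given in the sources used here, so the split between the pair is uncertain.

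Tanc2 (ENSMUSG00000053580), a scaffold protein of synapses and the first tested gene on 1 side of Mrc2, measured 19.6, 19.6 and 21.8 CPM in het 5, 6 and 7 and 19.8 and 16.1 CPM in WT 7 and WT 8. WT 7 lay within the het range. Het against WT, the log2 fold change was 0.18 (SE 0.15, adjusted p = 0.495 by edgeR), and -0.073 once length and GC trends were removed. It was 0.34 without WT 7 and 0.057 without WT 8. In TPM it was larger, 0.41 on log2(TPM + 1) and 0.58 on log2(TPM + 0.1). A short transcript, Tanc2-208, added 0.74 TPM in het 5 and 1.07 TPM in het 7 from 1.95 and 3.0 counts. Tanc2 has the longest transcripts of the 10, 9140 bases on average. Limd2 (ENSMUSG00000040699), a small LIM-domain protein that binds integrin-linked kinase, measured 7.56, 8.15 and 5.93 CPM in het 5, 6 and 7 and 6.05 and 6.37 CPM in WT 7 and WT 8. Het 7 was below both WT libraries, and the log2 fold change was 0.21 (SE 0.23, adjusted p = 0.616 by edgeR).

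As a group the 10 genes had 7 log2 fold changes above 0 and 3 below, with a median of 0.11 beside -0.0014 over all tested genes. The median without sign was 0.26, beside 0.28 over all. With length and GC trends removed the median was -0.0094 and the median without sign 0.19, beside 0.18 over all. That fit called 7 of 16412 genes (0.0427%), and 0 of the 10.

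Levels between genes were compared in TPM, which is per transcript length. From high to low, the mean over 5 libraries was 19.5 TPM for Taco1 (range 13.2 to 28.6), 17.3 for Map3k3, 14.6 for Dcaf7, 13.4 for Tlk2, 12.6 for Ace (7.56 to 21.6), 8.43 for Strada, 8.26 for Cyb561 and 5.41 for Mettl2 (4.01 to 7.58). Limd2, at 2.85 TPM (2.21 to 3.15), and Tanc2, at 2.24 TPM (1.30 to 3.47), were lowest. Each gene's range overlapped that of the next in this order except between Mettl2 and Limd2. All of the genes are thus present at low to moderate levels in atria whose summed atrial muscle markers, such as Nppa and Myl7, reached 80243 to 114971 TPM.

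The position along the chromosome was examined by counting tested genes outward from Mrc2. Tlk2 is the first tested gene on 1 side and Mettl2 the third; on the other side Tanc2 is the first, Cyb561 the second, Ace the fourth, and Dcaf7, Taco1, Map3k3, Limd2 and Strada follow at 6, 7, 8, 9 and 10. Among the 10 nearest tested genes on each side, 0 of 20 were called higher and 1 lower (5.0%), with a median log2 fold change of 0.037. Among the 25 nearest on each side, 0 of 50 were higher and 2 lower (4.0%), with a median of 0.037. Among the 50 nearest on each side, 3 of 100 were higher and 2 lower (5.0%), with a median of -0.024. Over all 1268 tested genes of chromosome 11, 34 were higher and 41 lower (5.91%), and over all genes 5.64% were called. The share called near Mrc2 was thus close to that of the chromosome and of the genome at each of the 3 distances.

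The called genes within 25 on each side were Myl4 and Psmc5, both lower in het. Myl4, the atrial myosin essential light chain, is 5 tested genes from Mrc2, beyond Mettl2, with a log2 fold change of -0.68 (SE 0.15, adjusted p = 0.031 by edgeR). Myl4 is also an atrial muscle marker, and the 8 markers of that list, of which Nppa gives the most, summed to 80243 to 93995 TPM in het and 103814 to 114971 TPM in WT. In TPM Tbx5 and Ttn were higher in all 3 het libraries, and Nppa, Myl4 and Tnnt2 lower. Those shares were 27.7% and 11.2% over all tested genes. Myl7, Sln and Actc1 overlapped. Of the 8, 2 were called lower, Nppa and Myl4, and 0 higher, with a median log2 fold change of -0.51. At an unadjusted p under 0.05 there were 6, beside 24.7% of all tested genes. With length and GC trends removed the median was -0.25, and 1 of the 8 was called, beside 7 of 16412 genes. Psmc5, a proteasome ATPase, is 14 genes away on the side of Tanc2, with a log2 fold change of -0.47 (adjusted p = 0.044 by edgeR). With each library left out in turn Myl4 stayed at -0.73 to -0.62 and Psmc5 at -0.53 to -0.42, about as large as with all libraries. Neither was called in any of those 5 fits. The fits without a het library called at most 5 of all genes higher and 6 lower. Those without a WT library called many more, with neither gene among them. With length and GC trends removed Myl4 was -0.40 (adjusted p = 0.181) and Psmc5 -0.31 (adjusted p = 0.222).

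**Figure D3:**
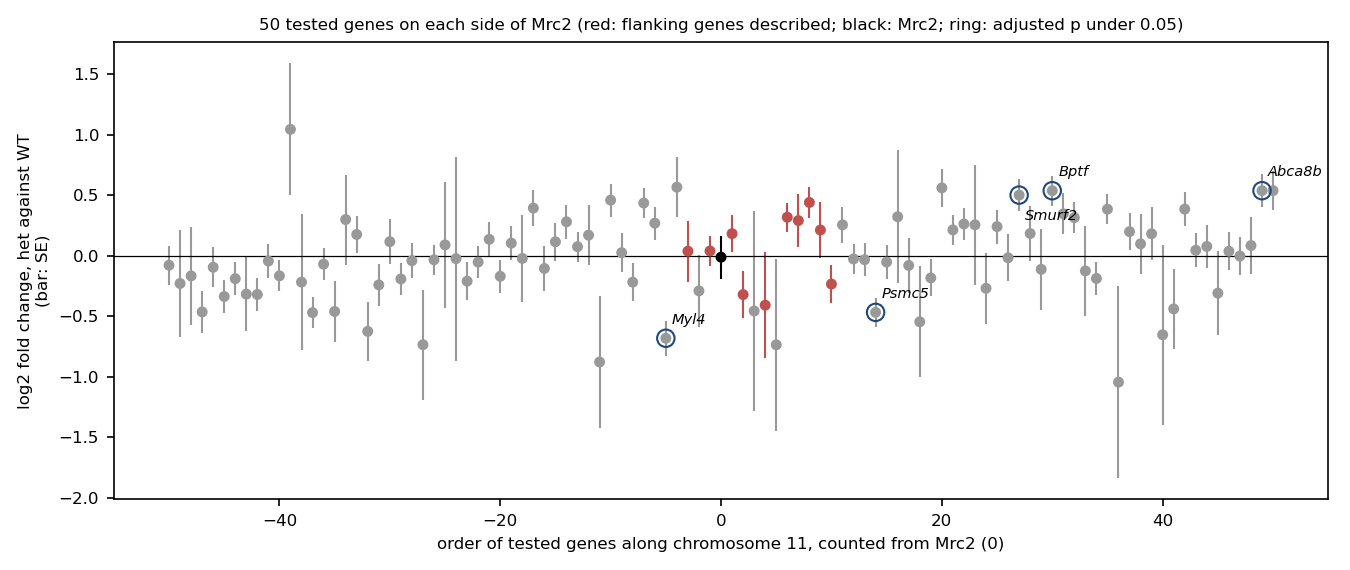
Log2 fold change, het against WT (bars, SE), of the 50 tested genes on each side of Mrc2, by their order along chromosome 11; red marks are the 10 flanking genes, the black mark is Mrc2, and rings are genes with an adjusted p under 0.05. Of the 100 neighbours 5 are ringed, 3 higher and 2 lower, and none of them is a red mark.

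The authors' deposited table of the same contrast, which does not list the animals it was fitted on, gave other values for several of these genes. In the authors' deposited table Tanc2 had a log2 fold change of 0.94 (bounds 0.47 to 1.42), p = 3.4e-04 by limma, rank 14 of 14927 genes, with an adjusted p of 0.323. It was the only 1 of the 10 with an unadjusted p under 0.05 in the authors' deposited table, where 5.6% of genes were. It was also the only 1 whose bounds lay on 1 side of 0, beside 5.25% of genes. At an adjusted p under 0.05 that table called 0 of 14927 genes (0.0%), and its smallest adjusted p was 0.277. For Dcaf7 the authors' deposited table gave -0.29 (bounds -0.70 to 0.13), opposite in sign to the 5 libraries. For Map3k3 it gave -0.0096 (bounds -0.91 to 0.89), and for Ace -0.12 (bounds -0.87 to 0.63).

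In all, the authors' deposited table had 9 of the 10 genes below 0 and 1 above, with a median of -0.13 beside -0.035 over all its genes. The 5-library values of 8 of the 10 lay inside the bounds of the authors' deposited table, and those of Tanc2 and Dcaf7 lay outside. On log2(TPM + 0.1) the same libraries gave 0.58 for Tanc2, inside those bounds, and on log2(TPM + 1) 0.41, below them. The TPM of Tanc2 rested in part on the 456-base transcript Tanc2-208. It had 0.74 TPM in het 5 and 1.07 TPM in het 7, from 1.95 and 3.0 counts, and 0 elsewhere. Tanc2-202, the transcript with most counts, overlapped, at 1.53, 1.62 and 1.86 TPM in het and 1.54 and 1.13 TPM in WT. The authors' fit and the 5-library fit may share libraries, and the difference between them was not tested. Of the 95 genes within 50 on each side of Mrc2 that the authors' deposited table lists, 4 had an unadjusted p under 0.05: Tanc2, Bptf, Pitpnc1 and Helz, the last 3 named after their values were seen. Bptf, a chromatin-remodelling subunit 30 genes away, had a log2 fold change of 1.05 in the authors' deposited table. In the 5 libraries it was 0.54 (adjusted p = 0.035 by edgeR), but 0.29 (adjusted p = 0.253) once both trends, length and GC, were removed, and 0.48 to 0.62 with each library left out, called in 1 of those 5 fits.

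**Figure D4:**
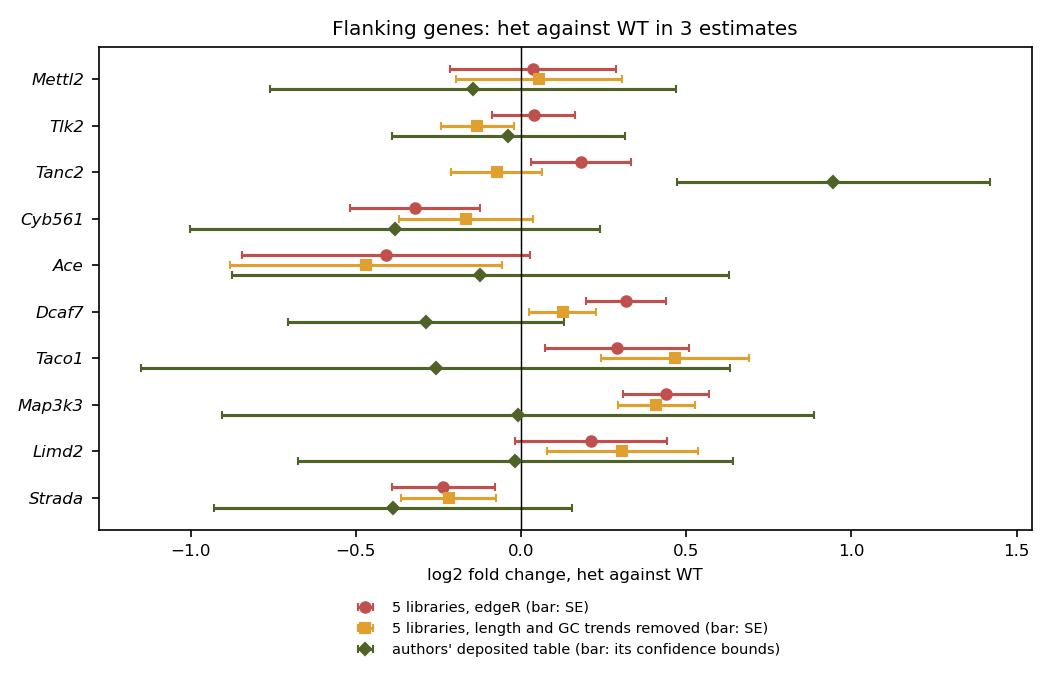
Log2 fold change of each flanking gene, het against WT, in 3 estimates: edgeR on the 5 libraries (red circles, bars SE), the same with length and GC trends removed (yellow squares, bars SE) and the authors' deposited table (green diamonds, bars its confidence bounds). Tanc2 is at 0.18, -0.073 and 0.94 in the 3 estimates, and Dcaf7 at 0.32, 0.13 and -0.29.

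Transcripts were examined to show which form carries each gene. The tables list 51 transcripts of the 10 genes, of which 26 were tested. By edgeR 0 of them were called, as were 0 of all 38651 transcripts tested (0.0%); 3 of the 26 had an unadjusted p under 0.05, beside 12.7% of all. DESeq2 called 5.74% of all transcripts and 1 of these, Map3k3-201 (ENSMUST00000002044), higher in het at a log2 fold change of 0.46 (adjusted p = 0.0104). Of Cyb561, Dcaf7, Limd2, Map3k3, Taco1 and Tanc2, a single transcript held nearly all counts: 98.7% in het and 98.0% in WT for Map3k3-201, 99.9% and 100% for Dcaf7-201, 95.3% and 95.4% for Tanc2-202, 94.6% and 96.9% for Cyb561-201, and 97.0% and 95.6% for Limd2-201. Taco1 has 1 transcript. The authors' isoform percent, which divides by length, widened the difference between het and WT. It was -12.7 points for Tanc2-202, -11.2 for Cyb561-201, 4.4 for Map3k3-201 and 4.62 for Limd2-201. By counts Tanc2-202 differed by -0.050 points. Its wider value rested in part on Tanc2-208 (456 bases), with 1.95 counts in het 5, 3.0 in het 7 and 0 elsewhere.

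Ace, Mettl2, Tlk2 and Strada were split over several transcripts. For Ace the full-length Ace-201 (4906 bases, 25 exons) begins 3 bases before the outer start printed above. It held 56.4% ± 6.29 of the gene's counts in het (SD, n = 3) and 57.8% ± 5.91 in WT (SD, n = 2). Ace-202 (2418 bases, 14 exons) begins 19 bases after the inner start, and differs from Ace-201 by 196 bases at its 5′ end, with 91.9% of its sequence shared. Its share was 23.3%, 10.0% and 14.1% in het 5, 6 and 7 and 23.6% and 23.4% in WT 7 and WT 8. The het libraries were all lower, het 5 by little, and the exact two-sided permutation p was 0.2, the smallest that 3 against 2 libraries allow. Both transcripts were highest in WT 7, at 8.45 TPM for Ace-201 and 8.17 TPM for Ace-202, so the high level of Ace in that library was in both. Germ cell markers were near 0, with Prm2 and Tnp1 at 0 in every library and a summed level of 0.37 to 0.84 TPM in het and 0.51 to 0.62 TPM in WT. The third form, Ace-203 (3649 bases), held 27.8% ± 1.74 in het and 18.7% ± 5.77 in WT. Estimated counts of forms that share most of their sequence rest on few reads and are uncertain.

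For Mettl2 the coding Mettl2-201 held 69.7%, 59.6% and 78.8% of counts in het 5, 6 and 7 and 86.8% and 79.6% in WT 7 and WT 8. Its share was lower in each het library, with means of 69.4% ± 9.63 (SD, n = 3) and 83.2% ± 5.06 (SD, n = 2). The exact two-sided permutation p was 0.2, and 0.9 after adjustment over the 9 genes with more than 1 transcript. The difference was -13.8 points by counts and -6.21 points by the authors' isoform percent. Mettl2-204, annotated as a processed transcript with no coding sequence, held 24.0% ± 6.82 in het and 12.4% ± 1.32 in WT. Tlk2 was led by Tlk2-207, annotated as a target of nonsense-mediated decay, with 51.6% ± 10.5 in het and 55.2% ± 2.98 in WT. Strada was led by Strada-201, with 62.2% ± 10.1 in het and 68.9% ± 10.3 in WT. The shares of Tlk2-207 and Strada-201 overlapped between the groups. Tlk2-204 held 11.8%, 14.4% and 20.3% in het 5, 6 and 7 and 22.2% and 20.9% in WT 7 and WT 8. Its share was lower in each het library, with an exact two-sided permutation p of 0.2. How many transcripts of all genes have shares that separate the groups was not counted, so these separations have no background beside them.

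**Figure D5:**
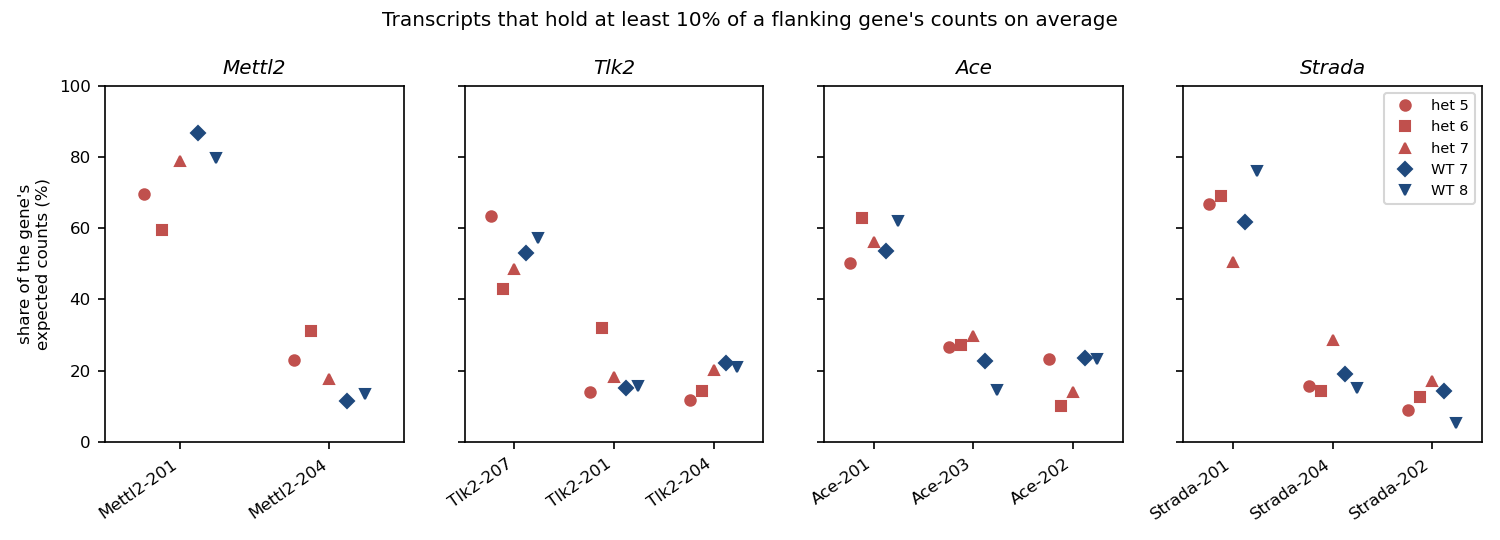
Share of the gene's expected counts, in percent, held by each transcript with at least 10% on average, for Mettl2, Tlk2, Ace and Strada; red marks are het libraries and blue marks WT libraries. Mettl2-201, Tlk2-204 and Ace-202 are lower, and Mettl2-204 and Ace-203 higher, in all 3 het libraries than in both WT libraries. Each has an exact two-sided permutation p of 0.2, the smallest possible. Shares of the same gene depend on each other, and how many transcripts of all genes separate so was not counted. Tlk2-207 and Strada-201 overlap.

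Genes that work with the flanking genes were counted by list, each including its flanking gene, and read beside the 5.64% of all tested genes called. In the renin-angiotensin and kinin list 18 of 25 genes were tested, 1 higher and 1 lower, with a median log2 fold change of -0.10. Agt, the precursor of the angiotensins, fell from 18.7 ± 3.08 CPM in WT (SD, n = 2) to 11 ± 2.12 CPM in het (SD, n = 3), a log2 fold change of -0.77 (SE 0.19, adjusted p = 0.0401 by edgeR). Lnpep, the aminopeptidase that binds angiotensin IV, rose from 123 ± 18.6 CPM to 179 ± 7.84 CPM, a log2 fold change of 0.54 (SE 0.14, adjusted p = 0.0438 by edgeR). Ren1, which encodes renin, was listed at 0 in every library.

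The Mekk3, Mek5, Erk5 and cerebral cavernous malformation list around Map3k3 had 16 genes tested, 2 higher and 0 lower, with a median of 0.27. Those 2 were Map3k2, the kinase closest to Map3k3 (0.64, adjusted p = 0.0438), and Heg1, an endothelial receptor of the malformation complex (0.50, adjusted p = 0.0444), both by edgeR. The Lkb1, Strad and AMPK-related kinase list had 2 of 24 higher and 0 lower, median 0.027: Sik2 (0.83, adjusted p = 0.0229) and Prkaa2, an AMPK catalytic subunit (0.66, adjusted p = 0.0352). Among Dcaf7 partners and the Cul4 ligase 2 of 15 were higher and 0 lower, median 0.22: Hipk2, a kinase that binds Dcaf7 (1.36), and Cul4b (0.66, adjusted p = 0.0352). Hipk2 went from 33.8 ± 9.07 CPM in WT to 86.7 ± 12.3 CPM in het. The list of Tousled-like kinases and histone chaperones had 1 of 16 higher, Atrx (0.77, adjusted p = 0.0229), 0 lower, and a median of 0.10.

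In the cytochrome c oxidase assembly list around Taco1, 23 of 24 genes were tested, 0 were higher and 2 lower, with a median of -0.20. Both are assembly factors for subunit I: Coa3 (-0.61, adjusted p = 0.027) and Cox14 (-0.65, adjusted p = 0.031), by edgeR. For the remaining lists genes with an unadjusted p under 0.05 were also counted, which 24.7% of all tested genes had. In the remaining lists 0 genes were called: tRNA 3-methylcytidine enzymes (5 tested, 1 with an unadjusted p under 0.05, median -0.10), the cytochrome b561 family with vesicle amine and peptide synthesis (11 tested, 2, median 0.060), Tanc scaffolds with the postsynaptic density (14 tested, 6, median -0.037) and the integrin-linked kinase complex (10 tested, 2, median 0.095). The named genes there were Sars1 (-0.35, adjusted p = 0.0886), Dalrd3 (-0.21), Pam (0.15), Cyb561a3 (0.060), Homer1 (0.55, adjusted p = 0.128), Dlgap4 (-0.20), Ilk (-0.18) and Fermt2 (0.25). No gene of these lists was called with length and GC trends removed. The log2 fold changes were then 1.16 for Hipk2, 0.75 for Sik2, -0.53 for Cox14, -0.60 for Agt and 0.45 for Cul4b. Larger parts were lost for Coa3 (-0.25), Map3k2 (0.38), Atrx (0.44), Prkaa2 (0.39), Heg1 (0.31) and Lnpep (0.34). Of the 13 genes named as called in the lists or among the 25 neighbours on each side, 1, Hipk2, was also called in a fit without a het library. Those fits called at most 5 of all genes higher and 6 lower, so the lack of a call there says little.

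Depth ran from 17784601 expected counts in WT 8 to 28353091 in het 7, and the spread between animals beyond counting error was 18% (biological coefficient of variation). Markers of atrial muscle, endothelium, fibroblasts and macrophages were detected in every library, and the lung markers Sftpc and Sftpa1 were at 0 in all. Summed fibroblast markers, mostly Dcn, were 957 to 984 TPM in het and 586 to 866 TPM in WT. Dcn, Lum and Pdgfra were higher in all 3 het libraries, Col1a1, Col1a2, Col3a1 and Tcf21 overlapped, and the median log2 fold change of the 7 was -0.055. In TPM 27.7% of all tested genes were higher in all 3 het libraries, and 11.2% lower. Macrophage markers summed to 217 to 284 TPM in het and 187 to 189 in WT, and erythroid markers to 11767 to 19997 and 2048 to 8751, with WT 7 lowest. Lymphocyte markers were 21.1 to 46.5 TPM in het and 5.75 to 10.1 in WT, and ventricular markers 133 to 536 and 238 to 291. By edgeR 2 of 7 macrophage, 1 of 7 fibroblast and 1 of 6 tested lymphocyte markers were called higher, and 0 lower. Of 4 tested ventricular markers 1 was called lower and 0 higher, and of 7 erythroid markers 0 were called. Over all tested genes 2.99% were called higher and 2.66% lower. The 6 smooth muscle and pericyte markers had a median log2 fold change of -0.71. At an unadjusted p under 0.05 there were 4, beside 24.7% of all tested genes, and 1, Tagln, was called lower. In TPM Pdgfrb and Rgs5 were higher in all 3 het libraries, and Tagln lower. Adipocyte markers, mostly Fabp4, summed to 234 to 503 TPM in het and 274 to 472 TPM in WT. Fabp4 was highest in WT 8, at 435 TPM beside 407 TPM in het 7. Adipoq was 27.6 TPM in het 7 and 16.2 TPM in WT 8, and Cidec 21.7 and 15.5 TPM. Ucp1 and Plin1 set het 7 apart, with Ucp1 at 28.5 TPM there and 0 to 0.64 elsewhere, and Plin1 at 17.1 and 0.54 to 5.05. The part of these cell types in the values of the flanking genes was not tested.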

How the data were processed

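Whole-atrium RNA was sequenced as stranded polyA libraries, per the labels' protocols. Per the submitters' processing notes, which give no versions, the tools were Trim Galore, STAR, SAMtools, RSEM, FastQC, MultiQC, edgeR and limma, with build GRCm39. The deposited RSEM tables give expected counts, estimated by the authors and not normalized, and TPM, scaled by the authors to length and library total. They also give transcript and gene lengths in bases and, for transcripts, the authors' isoform percent. The authors' deposited comparison gives log2 fold changes, moderated t scores and p-values. Its t is exactly 0 for 9779 of 14927 genes, among them 6 of the 10 flanking genes, and how that test was set is not given in the sources used here.

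Samples were grouped by title and genotype label. Nothing in the sources used here pairs libraries, and p-values measure the spread between these animals only. Expected counts were rounded and tested over the whole table with edgeR 4.0.16 in R 4.3.3 (default expression filter, TMM, robust quasi-likelihood, Benjamini-Hochberg threshold 0.05), separately for genes and transcripts. SEs are in log2 units. Alternatives used DESeq2 1.42.0, limma 3.58.1, mgcv 1.9.3 for length and GC offsets (GC known for 97.9% of tested genes), other scalings and filters, and each library left out. Transcript shares were compared by exact permutation over 10 splits. Scripts were tested on simulated data. Neighbours were ordered by the reference annotation, used for order and names only.

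The flanking genes and the lists were chosen with earlier results of these data known. Named genes are all 10, Mrc2, up to 4 called genes of each list (else the 2 of highest TPM), called genes within 25 on each side of Mrc2 (at most 8), and transcripts holding at least 10% of a gene's counts.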

Additional observations from a re-analysis of the deposited data

How the results depend on the processing

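No paired analysis was possible because nothing in the sources used here pairs het and WT libraries. The count of flanking genes called higher went from 0 to 1 (Map3k3) with DESeq2, with library size alone and when every gene with a count was tested, and the count called lower ranged from 0 to 1 with a library left out, 1 being Ace without WT 8. DESeq2 called 1 named transcript higher. The median of the 25 nearest genes on each side, 0.037, was 0.0015 once length and GC trends were removed and 0.0074 to 0.12 with a library left out. These signs turned. With upper-quartile scaling Mettl2 was -0.0083 and Tlk2 -0.0058; with the Y-linked covariate Mettl2 was -0.017, Tlk2 -0.020, Ace 0.37, Pam -0.015 and Cyb561a3 -0.053. After removal of both trends, length and GC, Tlk2 was -0.13, Tanc2 -0.073, Dalrd3 0.072 and Pam -0.023; with the length trend alone Tlk2 was -0.031 and Tanc2 -0.023. Among transcripts, Strada-204 was 0.014 with library size alone, 0.012 with every transcript with a count and 0.052 with the length trend removed, where Tanc2-202 was -0.29 and Ace-203 -0.064; by the authors' isoform percent the Ace-201 share was 1.03 points higher in het, and the Mettl2, Tanc2 and Cyb561 leading shares differed by -6.21, -12.7 and -11.2 points. Of these, the Tanc2 difference rested in part on 1.95 and 3.0 counts of Tanc2-208 in het 5 and het 7. With a library left out, the lowest and highest log2 fold changes of the genes that turned were -0.22 and 0.20 for Mettl2. They were -0.023 and 0.12 for Tlk2, -0.91 and 0.41 for Ace, -0.019 and 0.36 for Pam, and -0.048 and 0.19 for Cyb561a3. For transcripts they were -0.57 and 0.047 for Mettl2-201, -0.25 and 0.10 for Tlk2-207, -0.80 and 0.25 for Ace-201, -0.59 and 1.33 for Ace-203, -0.38 and 0.17 for Strada-204, and -0.30 and 0.97 for Strada-202. Leading shares, het minus WT, ranged from -9.42 to 0.75 points for Tlk2, -1.03 to 0.94 for Tanc2, -5.58 to 2.78 for Ace, -2.99 to 5.72 for Limd2 and -14.0 to 0.52 for Strada. Calls over all genes, higher and lower, were 490 and 436; they were 867 and 780 with DESeq2, 795 and 391 with library size alone, 327 and 568 with upper-quartile scaling, 1304 and 907 without a filter on low counts, 297 and 291 with voom weights, 216 and 123 with the Y-linked covariate, 10 and 10 with the length trend removed, 6 and 1 with both trends removed, 4 and 4 on log2(TPM + 1) and 15 and 7 on log2(TPM + 0.1). Without het 5, het 6 or het 7 they were 0 and 1, 5 and 6, and 0 and 0; without WT 7, 260 and 134; without WT 8, 588 and 290. The list genes and neighbours were put through the same alternatives, a step chosen after seeing the data. Depth limits Limd2 and Mettl2 most, at 109 to 182 and 130 to 295 expected counts a library.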
